A study of Homo sapiens with 8 samples.

Results

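The genes described here are APOE, its neighbour APOC1, and 6 genes that carry, sense or respond to sterols under the liver X receptors (LXR): the transporters ABCA1 and ABCG1, the receptors NR1H2 and NR1H3, and the targets MYLIP and LPCAT3. These 8 genes were taken by symbol from 62649 gene entries per library, and all 8 had enough reads to be tested, among 17671 genes that did. They were chosen knowing that APOE was lower with caffeine in both lines. The caffeine values of APOE are therefore given as a description, with no test, and the question put to the data is whether the other 7 genes moved with it.

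Cells dispose of cholesterol that they cannot break down by exporting it. Oxysterols, the oxidised forms of cholesterol, bind LXR alpha (NR1H3) and LXR beta (NR1H2), which pair with retinoid X receptors on DNA and switch on efflux genes. ABCA1 passes cholesterol and phospholipid to lipid-poor apolipoproteins such as APOE, and ABCG1 passes cholesterol to more mature particles. APOE and APOC1 lie side by side and are known in liver and macrophages to share distant enhancers, some of them LXR-responsive. MYLIP (also called IDOL) marks lipoprotein receptors for degradation, and LPCAT3 remodels membrane phospholipids.

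On GRCh38, by GENCODE 29, the members on the plus strand are APOE (ENSG00000130203) chr19:44905754-44909393, APOC1 (ENSG00000130208) chr19:44914247-44919349, ABCG1 (ENSG00000160179) chr21:42199689-42297244, NR1H2 (ENSG00000131408) chr19:50329653-50382982, NR1H3 (ENSG00000025434) chr11:47248300-47269032 and MYLIP (ENSG00000007944) chr6:16129125-16148248. Those on the minus strand are ABCA1 (ENSG00000165029) chr9:104781002-104928237 and LPCAT3 (ENSG00000111684) chr12:6976186-7018510. APOE and APOC1 lie together, NR1H2 lies elsewhere on the same chromosome, and the other members are each on a chromosome of their own.

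RNA was sequenced from SW480, a line from a primary colon adenocarcinoma, and SW620, a line from a lymph node metastasis of the same tumour. Both lines carried B8-mCherry, a fluorescent fusion of the immunoproteasome subunit PSMB8, in caffeine-treated and control cells alike. Caffeine is a methylxanthine that blocks adenosine receptors and, at higher concentrations, phosphodiesterases. The 8 libraries formed 4 groups of 2, namely SW480 caffeine, SW480 control, SW620 caffeine and SW620 control. The treatment text of the labels lists 30, 60, 100, 250 and 500 µM caffeine over 72 h, and a 28-day culture with 125 µM, for SW620 cells only. Which dose and time the sequenced libraries of either line had is not stated in it, so the responses of the lines may rest on different exposures.

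Assigned reads ran from 15760259 to 23269315 per library, and a gene without reads could have had up to 3 counts, or 0.129 to 0.190 CPM (counts scaled to the library total). The colorectal epithelial markers summed to 4622 to 13956 CPM over the 8 libraries and none of the 6 was at 0. Markers of macrophages and hepatocytes, both strong producers of APOE, were low. The 6 macrophage markers summed to 1.28 to 1.48 CPM in SW480 caffeine against 2.12 to 2.69 CPM in SW480 control, and to 3.75 to 4.08 CPM in SW620 caffeine against 2.23 to 2.86 CPM in SW620 control. PTPRC was at 0 in SW480 control and in both SW620 groups, CD68 in SW480 control, ITGAM in SW480 caffeine and SW620 control, and MRC1 in both SW620 groups. The 4 hepatocyte markers summed to 0.468 to 0.644 CPM in SW480 caffeine against 0.182 to 0.467 CPM in SW480 control, and to 0.302 to 0.476 CPM in SW620 caffeine against 1.75 to 1.92 CPM in SW620 control; TTR and HP were at 0 in every group but SW620 control. The 5 fibroblast markers summed to 2.96 to 4.64 CPM over the SW480 libraries, and to 44.2 to 47.0 CPM in SW620 caffeine against 36.6 to 39.2 CPM in SW620 control. DCN was at 0 in both SW480 groups and SW620 caffeine, LUM in both SW480 groups, THY1 in SW620 caffeine and SW480 control, and COL1A2 in SW620 control. The part of other cell types in the results was not tested. In SW480 caffeine replicate 2, 1.63% of assigned reads were mitochondrial, against 4.38% to 6.16% in the other 7 libraries. Values without this library are given for APOE and where a call was lost without it, and not for every member. In bulk RNA, fewer cells expressing a gene and less RNA per cell cannot be told apart.

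APOE was the member with the lowest caffeine values relative to control in both lines. It had 10.2 and 13.6 CPM in SW480 caffeine, against 33.4 and 41.4 CPM in SW480 control. It had 3.93 and 2.87 CPM in SW620 caffeine, against 9.67 and 11.2 CPM in SW620 control. The groups of neither line overlapped, and the SW480 caffeine libraries lay at about the level of untreated SW620. Behind these levels stood 159 and 320 reads in SW480 caffeine against 552 and 710 in SW480 control, and 66 and 57 reads in SW620 caffeine against 191 and 223 in SW620 control. The fitted log2 fold change was -1.64 ± 0.18 (SE) in SW480, or 3.11-fold lower, and -1.63 ± 0.21 in SW620, or 3.09-fold lower. Without SW480 caffeine replicate 2 the SW480 value was -1.87. The 2 responses differed by 0.01 ± 0.32 on the log2 scale. Called lower in both lines by edgeR's quasi-likelihood test were 0.334% of all tested genes (59), APOE among them by the way it was chosen.

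**Figure D1:**
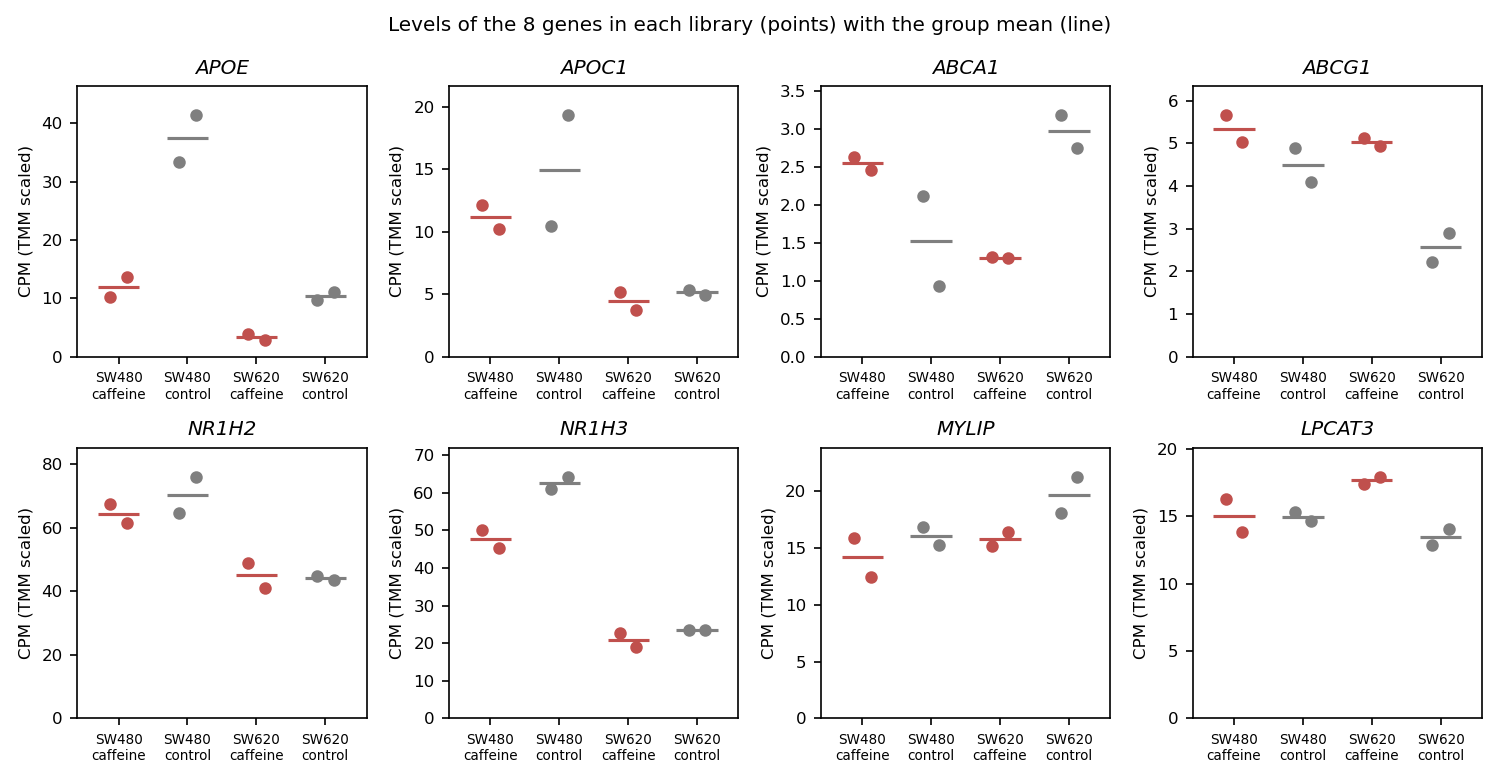
Levels of the 8 genes in CPM after TMM scaling (y axis, from 0) in the 4 groups (x axis). Points are libraries, 2 per group, and lines are group means. APOE lies at 10.2 and 13.6 CPM in SW480 caffeine against 33.4 and 41.4 CPM in SW480 control, while the APOC1 libraries of the treated and control groups overlap in both lines.

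APOC1, which lies 4853 bp downstream of APOE on the same strand, was not called in either line. It had 12.2 and 10.2 CPM in SW480 caffeine, against 10.5 and 19.3 CPM in SW480 control, and 1 control library stood well above the other 3. It had 5.18 and 3.72 CPM in SW620 caffeine, against 5.36 and 4.96 CPM in SW620 control. The groups overlapped in both lines. The log2 fold change was -0.42 ± 0.23 in SW480 (95% interval -0.91 to 0.07; edgeR adjusted p = 0.333) and -0.22 ± 0.27 in SW620 (-0.80 to 0.36; edgeR adjusted p = 0.645). Both intervals lie above the fitted value of APOE in the same line. As APOE was chosen for its low values, which have an error of their own, this is a description with no test. The SW480 value turned on 1 library: without SW480 control replicate 2 it was 0.07, and without SW480 control replicate 1 it was -0.80. In SW620 it was 0.0047 without SW620 caffeine replicate 2. APOC1 had 74 to 331 reads per library.

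The balance between the 2 neighbours shows the same data within each library, free of library scaling. Its numerator is APOE, chosen for its lower caffeine values, so the caffeine ratios are a description with no test. There were 0.841 and 1.33 APOE reads per APOC1 read in SW480 caffeine, against 3.19 and 2.15 in SW480 control. The ratio was 0.759 and 0.770 in SW620 caffeine, against 1.80 and 2.25 in SW620 control. APOE reads outnumbered APOC1 reads in all 4 control libraries and in 1 of the 4 caffeine libraries, SW480 caffeine replicate 2. Per kilobase of exon, APOE averaged 5.44 CPM in SW480 caffeine and 17.1 CPM in SW480 control, while the shorter APOC1 averaged 9.09 CPM and 12.1 CPM in those groups. Of the APOC1 exon bases, 43.2% are also annotated to another gene on the same strand. Reads in such shared bases are set aside as ambiguous by default in featureCounts, so the APOC1 level may be understated, which was not tested.

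The stretches around the start sites of the pair are shown because they are where the LXR pathway, if it acted next to the gene, could be read in sequence. They come from the RefSeq table on GRCh38.p14 and run from 250 bases before to 50 bases after a listed start. The APOE window is chr19:44905546-44905845 and the APOC1 window chr19:44914422-44914721, both on the plus strand. Capitals would mark a copy of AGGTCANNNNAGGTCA, the direct repeat spaced by 4 bases (DR4) that LXR with its partner is known to bind, on either strand with at most 1 mismatch in each half-site; neither window holds one.
APOE: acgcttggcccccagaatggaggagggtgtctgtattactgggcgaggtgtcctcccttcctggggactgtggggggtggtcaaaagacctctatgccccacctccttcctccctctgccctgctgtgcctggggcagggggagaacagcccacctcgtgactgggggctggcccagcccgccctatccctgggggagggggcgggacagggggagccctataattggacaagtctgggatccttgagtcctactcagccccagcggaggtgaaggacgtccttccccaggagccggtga
APOC1: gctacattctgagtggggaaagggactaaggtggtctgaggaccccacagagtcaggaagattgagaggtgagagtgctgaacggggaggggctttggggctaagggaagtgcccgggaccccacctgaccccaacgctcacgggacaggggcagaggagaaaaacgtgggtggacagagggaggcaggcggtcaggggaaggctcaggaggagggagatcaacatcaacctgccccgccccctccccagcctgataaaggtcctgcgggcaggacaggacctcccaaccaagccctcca
Neither window holds an exact AGGTCA half-site on either strand, which 13.8% of 35116 windows of this kind do. GGGCGG, the core of GC boxes, occurs 2 times in the APOE window and 1 time in the APOC1 window, and in 45.0% of all windows. The absence of a match concerns these letters in these 300 bases only; the known shared enhancers of the pair lie outside them.

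The 2 sterol transporters went opposite ways in SW620. There, ABCA1 was lower and ABCG1 higher with caffeine, and these were the only 2 of the other 7 members that edgeR called there, 1 higher and 1 lower, where 14.4% of all tested genes were called (8.1% higher, 6.25% lower). ABCA1 had 1.31 and 1.31 CPM in SW620 caffeine, against 3.19 and 2.76 CPM in SW620 control. ABCG1 had 5.12 and 4.93 CPM in SW620 caffeine, against 2.23 and 2.91 CPM in SW620 control. For both genes the treated and control libraries lay apart. The log2 fold change of ABCA1 was -1.18 ± 0.33 (2.26-fold lower; edgeR adjusted p = 0.0225), and that of ABCG1 was 0.97 ± 0.23 (1.95-fold higher; edgeR adjusted p = 0.00862). ABCA1 rested on 22 and 26 reads in SW620 caffeine against 63 and 55 reads in SW620 control, and ABCG1 on 86 and 98 reads against 44 and 58. The ABCA1 call did not hold without any 1 of the 4 SW620 libraries: the edgeR adjusted p was 0.0919 and 0.119 without SW620 caffeine replicates 1 and 2, and 0.157 and 0.0760 without SW620 control replicates 1 and 2. It was also lost in the DESeq2 Wald test (adjusted p = 0.0792). The ABCG1 call was lost without SW620 control replicate 1 (edgeR adjusted p = 0.146) and held without each of the other libraries.

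In SW480, ABCA1 had 2.64 and 2.47 CPM with caffeine, against 2.12 and 0.934 CPM in control. ABCG1 had 5.66 and 5.02 CPM in SW480 caffeine, against 4.90 and 4.09 CPM in SW480 control. For both genes the 2 caffeine libraries lay above the 2 controls, and neither passed the test. The log2 fold change was 0.74 ± 0.33 for ABCA1 (95% interval 0.04 to 1.44; edgeR adjusted p = 0.226) and 0.24 ± 0.21 for ABCG1 (-0.21 to 0.69; edgeR adjusted p = 0.564). The ABCA1 value moved with SW480 control replicate 2, where 16 reads were counted: it was 0.25 without that library and 1.44 without SW480 control replicate 1.

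ABCA1 was the one of the 7 members whose caffeine response passed the test of a difference between the lines. The SW620 effect minus the SW480 effect was -1.92 ± 0.46 on the log2 scale (95% interval -2.90 to -0.94; edgeR adjusted p = 0.0194), in a comparison where 6.71% of all tested genes were called. The call was lost without SW480 caffeine replicate 2 (edgeR adjusted p = 0.0617), SW620 caffeine replicate 1 (0.0504), SW620 caffeine replicate 2 (0.0646) or SW620 control replicate 1 (0.0838), with the value between -2.62 and -1.42 over all 8 libraries left out in turn. For ABCG1 the difference was 0.72 ± 0.31 (edgeR adjusted p = 0.176) and did not pass. Relative to ABCG1 and per base of exon, ABCA1 stood at 0.251 and 0.265 in SW480 caffeine against 0.233 and 0.123 in SW480 control, and at 0.138 and 0.143 in SW620 caffeine against 0.772 and 0.511 in SW620 control. The SW620 caffeine ratios lay below both controls and the SW480 caffeine ratios above both, where 1 control library was close to them and the other well below.

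**Figure D2:**
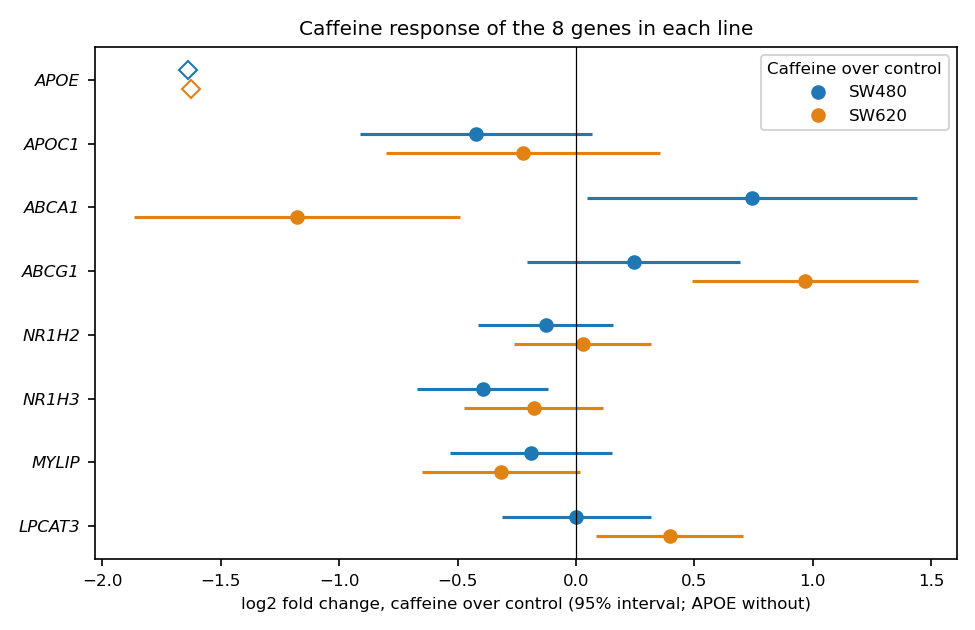
Log2 fold change, caffeine over control (x axis), of each of the 8 genes (y axis) in SW480 and SW620, from the edgeR fit of all 8 libraries. Bars are 95% intervals, and open diamonds mark APOE, shown without one since it was chosen on these values. APOE is at -1.64 and -1.63 in the 2 lines, ABCA1 lies at 0.74 in SW480 and -1.18 in SW620, and the intervals of NR1H2 and MYLIP include 0 in both lines.

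The ABCA1 window is shown because, of the 12 windows that the table gives for 7 of the members (all but ABCG1), it is the one with a DR4-like element. It spans chr9:104928106-104928405 of GRCh38.p14 and is written 5′ to 3′ on the minus strand, the strand of the gene. Capitals mark the element, which reads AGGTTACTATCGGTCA on the opposite strand, has 1 mismatch in each half-site and begins 69 bases before the start that the RefSeq table lists. GENCODE 29 puts the gene start farther upstream, and by it the element begins 13 bases inside the gene.
ABCA1: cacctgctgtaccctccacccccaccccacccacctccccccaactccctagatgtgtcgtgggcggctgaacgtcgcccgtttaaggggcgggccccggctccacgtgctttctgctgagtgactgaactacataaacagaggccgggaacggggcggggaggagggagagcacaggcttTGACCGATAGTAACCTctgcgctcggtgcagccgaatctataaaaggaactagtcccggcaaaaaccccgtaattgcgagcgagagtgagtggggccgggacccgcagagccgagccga
Windows with such an element at up to 1 mismatch per half-site made up 1.38% of the 35116 in the table (484), and 7 windows held the exact repeat. The ABCA1 window also holds TATAAA on the gene strand, as 7.33% of all windows do, and 3 copies of GGGCGG. It is the only printed window of the 3 with the repeat, and the gene it belongs to was lower in SW620 and not called in SW480. A match of letters does not show that a receptor is bound there.

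The 2 receptor genes did not pass the test in either line. NR1H2 had 67.4 and 61.5 CPM in SW480 caffeine, against 64.6 and 76.1 CPM in SW480 control, and 49.0 and 41.1 CPM in SW620 caffeine, against 44.8 and 43.5 CPM in SW620 control. Its groups overlapped in both lines, with a log2 fold change of -0.13 ± 0.14 in SW480 (95% interval -0.41 to 0.16) and 0.03 ± 0.14 in SW620 (-0.26 to 0.32; edgeR adjusted p = 0.643 and 0.933). The fitted APOE value of the same line lies outside each interval. That value was chosen for being low and has an error of its own, so this is a description with no test.

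NR1H3 had 50.1 and 45.3 CPM in SW480 caffeine, against 60.9 and 64.3 CPM in SW480 control. It had 22.6 and 18.9 CPM in SW620 caffeine, against 23.5 and 23.4 CPM in SW620 control. In both lines the 2 caffeine libraries lay below the 2 control libraries, by a wide gap in SW480 and a narrow one in SW620. The log2 fold change was -0.39 ± 0.13 in SW480 (95% interval -0.67 to -0.12; edgeR adjusted p = 0.110, unadjusted p = 0.00815) and -0.18 ± 0.14 in SW620 (-0.47 to 0.11; edgeR adjusted p = 0.438). The SW480 interval leaves out 0, but the adjusted p over all genes misses the threshold. With each library left out in turn, the SW480 value of NR1H3 ran from -0.47 to -0.32. Per base of exon, NR1H2 exceeded NR1H3 1.62 and 1.64 times in SW480 caffeine, 1.28 and 1.43 times in SW480 control, 2.62 and 2.62 times in SW620 caffeine, and 2.30 and 2.24 times in SW620 control. In both lines the ratio was higher in both caffeine libraries than in both control libraries.

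MYLIP, the ubiquitin ligase, had 15.9 and 12.5 CPM in SW480 caffeine, against 16.9 and 15.3 CPM in SW480 control. It had 15.2 and 16.4 CPM in SW620 caffeine, against 18.1 and 21.3 CPM in SW620 control. The SW480 groups overlapped and the SW620 groups did not. The log2 fold change was -0.19 ± 0.16 in SW480 (95% interval -0.53 to 0.15) and -0.32 ± 0.16 in SW620 (-0.65 to 0.02), and neither passed the edgeR test (adjusted p = 0.552 and 0.201). Over the libraries left out in turn, the SW480 value of MYLIP ran from -0.37 to -0.017.

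LPCAT3 had 16.3 and 13.8 CPM in SW480 caffeine, against 15.3 and 14.7 CPM in SW480 control. It had 17.4 and 18 CPM in SW620 caffeine, against 12.9 and 14 CPM in SW620 control. The SW480 groups overlapped, and both SW620 caffeine libraries lay above both controls. The log2 fold change was 0.00 ± 0.15 in SW480 (95% interval -0.31 to 0.32; edgeR adjusted p = 1) and 0.40 ± 0.15 in SW620 (0.08 to 0.71; edgeR adjusted p = 0.0848). In a fit of the 4 SW620 libraries alone LPCAT3 passed, at 0.41 with an edgeR adjusted p of 0.0192. On the opposite strand 65.6% of its exon bases overlap EMG1, and the strand setting of the counting is not given in the sources used here, so the 2 genes may share or lose reads. EMG1 had a log2 fold change of 0.17 ± 0.18 in SW620 (edgeR adjusted p = 0.589).

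Over the 7 members other than APOE, 0 were called in SW480 by edgeR, where 3.6% of all tested genes were (1.67% higher, 1.93% lower). At an unadjusted edgeR p under 0.05, 2 of the 7 passed there, ABCA1 and NR1H3, and DESeq2 and limma-voom also called 0. The share of all tested genes at that unadjusted cut was not computed, so the count of 2 cannot be set against it. The libraries of the groups did not overlap for 3 of the 7 in SW480, where 43% of all genes did not overlap, and for 5 of the 7 in SW620, where 62% did not. The median log2 fold change of the 7 was -0.13 in SW480 and -0.18 in SW620, against 0.00 and -0.01 over all tested genes. APOE aside, no member was called lower in both lines, and ABCA1 in SW620 was the only member called lower with caffeine at all.

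Between the untreated lines, a comparison in which APOE was not chosen, APOE was lower in SW620. It had 9.67 and 11.2 CPM in SW620 control, against 33.4 and 41.4 CPM in SW480 control, a log2 fold change of -1.84 ± 0.18 (3.59-fold lower; edgeR adjusted p = 1.05e-07). APOC1 was lower too, with 5.36 and 4.96 CPM in SW620 control against 10.5 and 19.3 CPM in SW480 control (-1.53 ± 0.25; edgeR adjusted p = 3.97e-05). Unlike the caffeine comparisons, where APOC1 was not called, both neighbours were thus lower. The 4 control libraries are the same ones that the caffeine effects are measured against. The receptors were lower as well: NR1H3 averaged 23.5 ± 0.0897 CPM in SW620 control and 62.6 ± 2.4 CPM in SW480 control (SD, n = 2 each; log2 fold change -1.42 ± 0.14; edgeR adjusted p = 8.74e-08). NR1H2 averaged 44.1 ± 0.908 CPM in SW620 control and 70.4 ± 8.13 CPM in SW480 control (-0.67 ± 0.14; edgeR adjusted p = 0.000365).

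The transporters went opposite ways between the untreated lines. ABCA1 was higher, at 2.97 ± 0.305 CPM in SW620 control against 1.53 ± 0.837 CPM in SW480 control (log2 fold change 0.97 ± 0.32; edgeR adjusted p = 0.0146). ABCG1 was lower, at 2.57 ± 0.481 CPM in SW620 control against 4.49 ± 0.577 CPM in SW480 control (-0.80 ± 0.23; edgeR adjusted p = 0.00569). MYLIP (0.29 ± 0.16; edgeR adjusted p = 0.115) and LPCAT3 (-0.16 ± 0.15; edgeR adjusted p = 0.371) did not pass. Of the 8 members 5 were thus lower and 1 higher, in a comparison where edgeR called 65.6% of all tested genes (33% higher, 32.6% lower), so that being called there is common. The libraries of the 2 groups did not overlap for any of the 8 members, nor for 83.4% of all tested genes. The calls of APOE, APOC1, NR1H2 and NR1H3 held without any 1 library. The ABCA1 call was lost, at 0.46, without SW480 control replicate 2 (edgeR adjusted p = 0.233), without SW620 control replicate 1 (0.0827) and in DESeq2 (0.105), and the ABCG1 call without SW620 control replicate 1 (0.0839).

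Ranked by mean level per kilobase of exon, the receptor NR1H2 stood first in every group, at 17.2 CPM per kb in SW480 caffeine, 18.8 in SW480 control, 12 in SW620 caffeine and 11.8 in SW620 control. APOE came next to it in SW480 control, at 17.1 ± 2.60 CPM per kb (SD, n = 2), where the libraries of the 2 genes overlapped. In the other groups APOE stood lower, at 5.44 ± 1.09 CPM per kb in SW480 caffeine and 1.55 ± 0.342 in SW620 caffeine, against 4.76 ± 0.487 in SW620 control. In SW620 caffeine it was below NR1H2, MYLIP (5.21), NR1H3 (4.58), LPCAT3 (3.74) and APOC1 (3.62), and above the transporters ABCG1 (0.821) and ABCA1 (0.115). ABCA1 was the lowest member per kilobase in all 4 groups.

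Likeness to APOE was described as Pearson's r of log2 CPM over the 8 libraries, for the 12464 genes that reached 1 on that scale on average. The genes most like it were WNT3 (r = 0.992), a Wnt ligand, PNPLA7 (0.980), a lysophospholipase, ARHGAP9 (0.976), a GTPase-activating protein, CCN1 (0.975), a secreted matrix protein, and ZNF174 (0.971), a zinc finger protein. PNPLA7 had 16 and 23.8 CPM in SW480 caffeine against 44.8 and 37.9 CPM in SW480 control, and 6.31 and 5.03 CPM in SW620 caffeine against 16.9 and 14.5 CPM in SW620 control. Among the members, NR1H3 (0.859, rank 369), APOC1 (0.827, rank 662) and NR1H2 (0.769, rank 1426) were the most like APOE. ABCA1 (0.0114), MYLIP (-0.0468) and ABCG1 (-0.0902) were near 0, and LPCAT3 was at -0.541. These points share the 2 lines and the 8 libraries, and r is a description only.

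Of 13 listed genes beside APOE on chromosome 19, none was called lower in both lines, where 0.334% of all tested genes were. Of these 13, 9 were tested, and in SW480 edgeR called 0 of them, against 3.6% of all tested genes. At an unadjusted edgeR p under 0.05 BCAM alone passed there, and DESeq2 called 1. In SW620 edgeR called 4 higher and 1 lower, where 8.1% of all tested genes were higher and 6.25% lower. BCL3, a regulator of NF-kB, had 13.5 and 9.31 CPM in SW620 caffeine against 4.76 and 3.96 CPM in SW620 control (log2 fold change 1.38 ± 0.21; edgeR adjusted p = 0.000348), and its call held without any 1 library. MARK4, a microtubule kinase (0.56), NECTIN2, an adhesion molecule (0.48), and RELB, an NF-kB subunit (0.52), were also higher, and BCAM, a laminin receptor, was lower (-0.46), with edgeR adjusted p between 0.0113 and 0.0296. These 4 calls each failed without SW620 control replicate 1, without SW620 control replicate 2 and without at least 1 SW620 caffeine library, at edgeR adjusted p of 0.0806 to 0.323. TOMM40, a mitochondrial import channel 2064 bp upstream of APOE and its nearest upstream neighbour here, had a log2 fold change of 0.22 ± 0.12 in SW480 and -0.35 ± 0.12 in SW620 (edgeR adjusted p = 0.326 and 0.0593). APOC4 and the pseudogene APOC1P1 had 0 reads in every library, and APOC2 was under the floor.

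**Figure D3:**
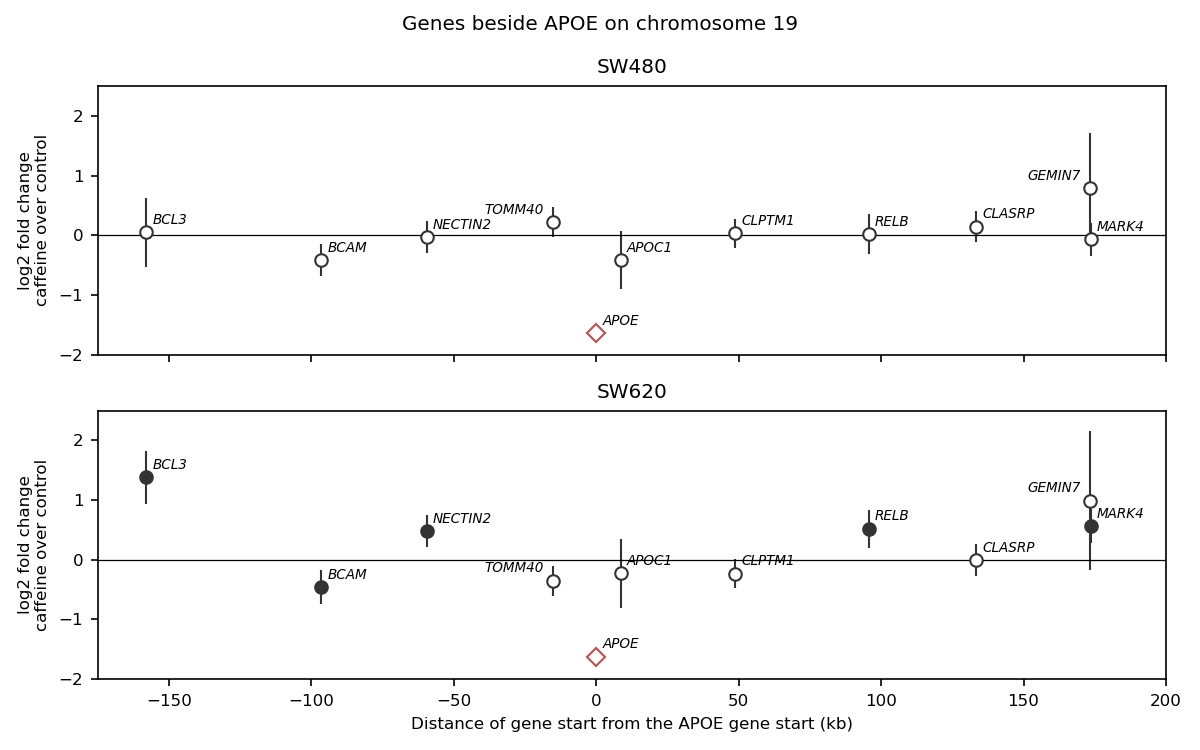
Log2 fold change, caffeine over control (y axis), of the tested genes beside APOE by the distance of their start from that of APOE (x axis, kb), in SW480 (upper panel) and SW620 (lower panel). Bars are 95% intervals, filled points passed at an edgeR adjusted p under 0.05, and the open diamond is APOE, shown without an interval. APOE, at -1.64 in SW480 and -1.63 in SW620, lies below each of the genes plotted beside it, and BCL3 in SW620 is the highest, at 1.38.

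Of 13 other LXR targets 8 were tested, and edgeR called 1 higher in SW480, against 1.67% of all tested genes, and 0 in either direction in SW620, against 14.4% (1 at an unadjusted p under 0.05, 0 by DESeq2 or limma-voom). Their median log2 fold change was 0.00 in SW480 and -0.46 in SW620, or -0.26 in SW620 without LPL, which has no reads in SW620 caffeine, against 0.00 and -0.01 over all tested genes. The called gene was FASN, the fatty acid synthase, with 759 and 1090 CPM in SW480 caffeine against 571 and 562 CPM in SW480 control (log2 fold change 0.71 ± 0.15; edgeR adjusted p = 0.0193). Its call was lost without SW480 caffeine replicate 2, the library with few mitochondrial reads (0.42; edgeR adjusted p = 0.281), and without SW480 control replicate 1 (0.0522). SREBF1, the lipogenic regulator upstream of FASN and itself an LXR target, was at 0.44 ± 0.13 in SW480 and 0.00 ± 0.13 in SW620 (edgeR adjusted p = 0.0748 and 1). SMPDL3A, a secreted phosphodiesterase, was at -0.48 ± 0.27 in SW480 and -0.65 ± 0.25 in SW620 (edgeR adjusted p = 0.355 and 0.0945). LPL, lipoprotein lipase, averaged 7.54 ± 0.252 CPM in SW480 caffeine and 8.22 ± 1.39 CPM in SW480 control, and had 0 to 2 reads in the SW620 libraries. The sterol exporters ABCG5 and ABCG8, and CETP, were too low to test.

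Of 10 partners and co-regulators of LXR 9 were tested, and edgeR called 0 in SW480, where it called 3.6% of all tested genes (1 of the 9 at an unadjusted p under 0.05, 0 by DESeq2 or limma-voom). In SW620, where it called 14.4% of all tested genes, it called the repressor subunit TBL1XR1 higher (0.38 ± 0.12; adjusted p = 0.0473) and the corepressor NRIP1 lower (-0.77 ± 0.19; adjusted p = 0.0120). TBL1XR1 failed without any 1 of the 4 SW620 libraries (edgeR adjusted p 0.0617 to 0.363), and NRIP1 without SW620 caffeine replicate 1 or either SW620 control library (0.0595 to 0.146). HDAC3 and GPS2, of the same repressor complex, were at 0.14 ± 0.13 and 0.62 ± 0.33 in SW480 (edgeR adjusted p = 0.575 and 0.317) and at 0.23 ± 0.13 and -0.73 ± 0.41 in SW620 (0.246 and 0.261), and did not pass. The GPS2 effect in SW620 minus that in SW480 was -1.35 ± 0.52 (edgeR adjusted p = 0.135). GPS2 had 2.96 and 7.71 CPM in SW480 caffeine against 3.93 and 3.27 CPM in SW480 control. Its positive SW480 value thus rested on SW480 caffeine replicate 2, the library with few mitochondrial reads, and replicate 1 lay below both controls. GPS2 also shares 44.7% of its exon bases with a gene on the same strand. Of 7 listed genes that make or remove oxysterols 4 were tested. In SW480, where edgeR called 3.6% of all tested genes, it called 0 of them (2 at an unadjusted p under 0.05, 0 by DESeq2 or limma-voom). In SW620, where 6.25% of all tested genes were called lower, it called 1 lower. This was HSD3B7, which processes oxysterols towards bile acids; it was at -0.66 ± 0.16 in SW620 (edgeR adjusted p = 0.0123) and -0.99 ± 0.27 in SW480 (0.0561); its SW620 call was lost without SW620 caffeine replicate 2 or either SW620 control library (0.112 to 0.166) and in DESeq2 (0.0515), and it shares 64.6% of its exon bases with a gene on the opposite strand. SULT2B1, an oxysterol sulfotransferase, and CYP27A1, which makes an oxysterol, were at -1.76 ± 0.60 and -0.31 ± 0.19 in SW480 (edgeR adjusted p = 0.119 and 0.399) and at -0.03 ± 0.32 and -0.19 ± 0.22 in SW620 (0.975 and 0.634). SULT2B1 had only 2 and 4 reads in SW480 caffeine, near the floor of 3 counts, against 10 and 8 in SW480 control. EBP, also tested, was at 0.26 ± 0.19 in SW480 and 0.11 ± 0.19 in SW620 (edgeR adjusted p = 0.470 and 0.745).

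Of 11 receptors for apolipoproteins and proteins that move sterol within the cell, all tested, edgeR called 2 higher in SW480, where 1.67% of all tested genes were called higher. In SW620 it called 3 higher and 1 lower, where 8.1% of all tested genes were higher and 6.25% lower. LRP1, a receptor for APOE, had 21.1 and 25.6 CPM in SW620 caffeine against 10.8 and 10.6 CPM in SW620 control (1.13 ± 0.19; edgeR adjusted p = 0.000824). NPC1, which exports cholesterol from lysosomes, had 54.1 and 67.8 CPM in SW620 caffeine against 34.3 and 31.9 CPM in SW620 control (0.88 ± 0.14; edgeR adjusted p = 0.000631). These 2 calls held without any 1 library. OSBP, an oxysterol-binding transfer protein (0.54 ± 0.12; edgeR adjusted p = 0.00801), was also higher, and SCARB1, a receptor for high-density lipoprotein (-0.42 ± 0.12; 0.0224), was lower; OSBP failed without SW620 caffeine replicate 2 or either SW620 control library (0.0708 to 0.131) and SCARB1 without any 1 SW620 library (0.118 to 0.238). In SW480 the receptor VLDLR (0.71 ± 0.17; edgeR adjusted p = 0.0337) and the endosomal sterol carrier STARD3 (0.75 ± 0.14; 0.00811) were higher. Both were lost without SW480 caffeine replicate 2 (0.319 and 0.135) or SW480 control replicate 1 (0.178 and 0.0523), and VLDLR also without either SW620 control library (0.0599 each), in limma-voom (0.0645) and in a fit of SW480 alone (0.0725). VLDLR and SCARB1 are named because so few were called, after their values were seen.

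Of 7 listed targets of SREBP2, the regulator of sterol synthesis, all were tested and edgeR, DESeq2 and limma-voom called 0 in either line. Over all tested genes edgeR called 3.6% in SW480 and 14.4% in SW620. At an unadjusted p under 0.05 edgeR had 4 of the 7 in SW480 and 2 in SW620, with no share over all tested genes to set them against. MVD, SQLE and IDI1, enzymes of the pathway, were at 0.63 ± 0.18, 0.11 ± 0.12 and 0.06 ± 0.14 in SW480 and at 0.11 ± 0.19, -0.32 ± 0.12 and -0.34 ± 0.14 in SW620, and none passed edgeR (smallest adjusted p = 0.0712). Of 8 lysophospholipid acyltransferases, relatives in function of LPCAT3, edgeR called 1 lower in SW480, where 1.93% of all tested genes were called lower. In SW620 it called 1 higher and 1 lower, where 8.1% of all tested genes were higher and 6.25% lower. LPCAT2 was called lower in both lines, as 0.334% of all tested genes were. LPCAT2 had 64.6 and 49.2 CPM in SW480 caffeine against 109 and 81.8 CPM in SW480 control (-0.75 ± 0.17; edgeR adjusted p = 0.0247), and 2.92 and 4.53 CPM in SW620 caffeine against 8.40 and 8.87 CPM in SW620 control (-1.20 ± 0.23; edgeR adjusted p = 0.00229). The SW620 call held without any 1 library, and the SW480 call was lost without SW480 caffeine replicate 2 (0.320) or SW480 control replicate 1 (0.156). AGPAT2, which makes phosphatidic acid, was higher in SW620 (0.46 ± 0.14; edgeR adjusted p = 0.0350), a call that failed without any 1 SW620 library (0.115 to 0.293). MBOAT2 and LPGAT1 were at -0.25 ± 0.14 and -0.32 ± 0.14 in SW480 and at -0.31 ± 0.14 and -0.35 ± 0.14 in SW620, and did not pass.

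**Figure D4:**
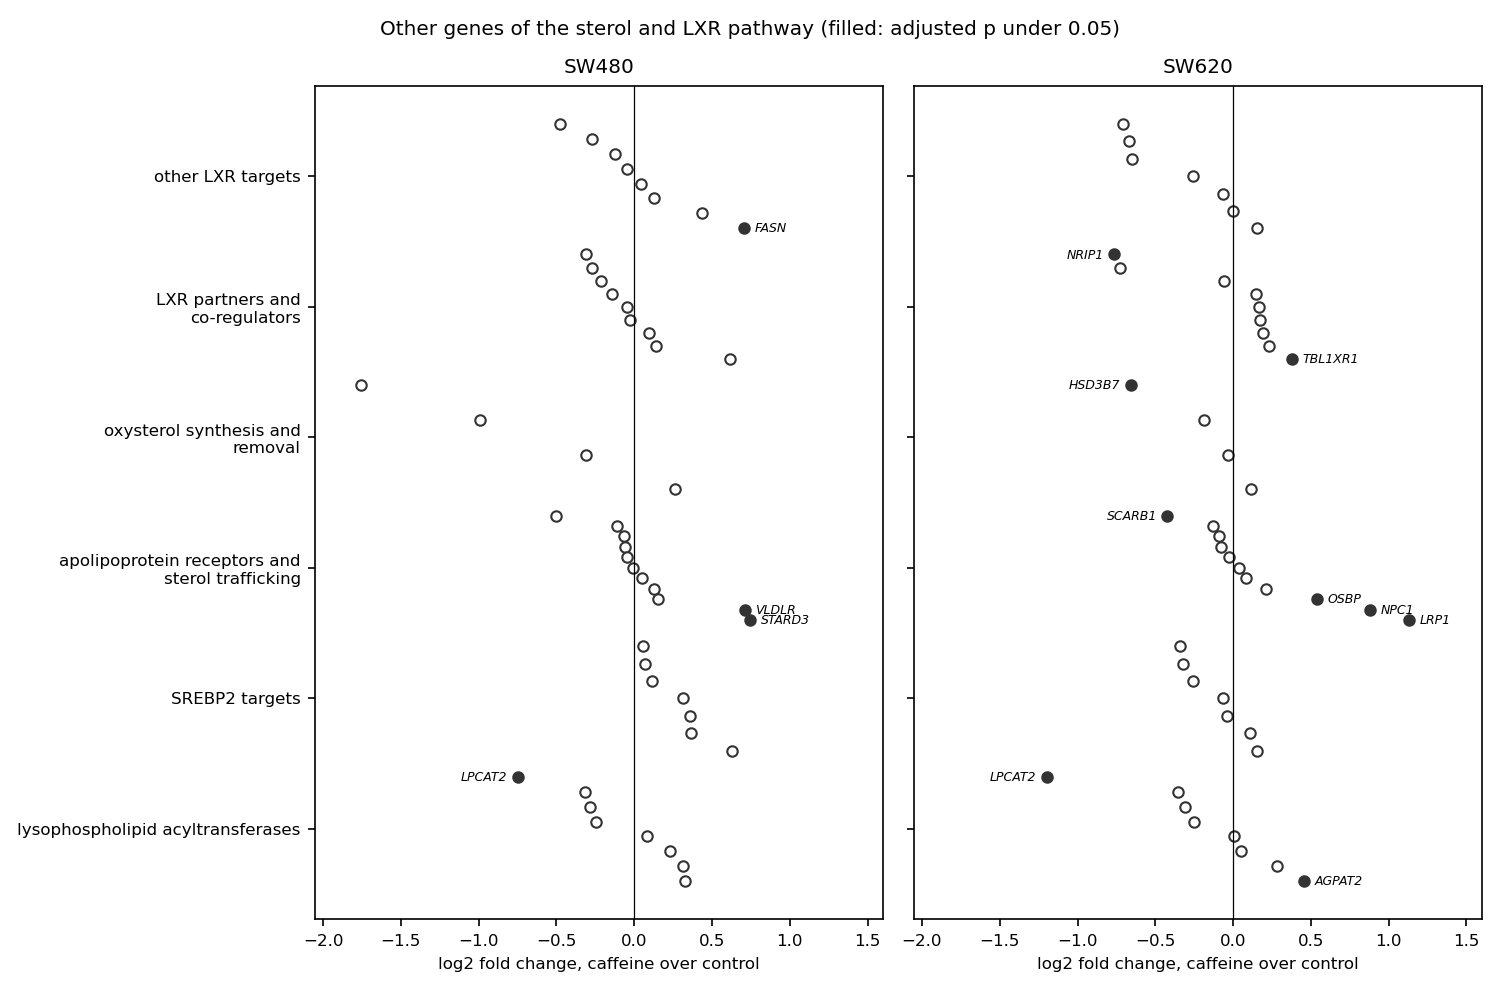
Log2 fold change, caffeine over control (x axis), of the tested genes of 6 lists around sterol handling and LXR (y axis) in SW480 (left) and SW620 (right). Each point is a gene, ordered by value within its list, filled and named where the edgeR adjusted p is under 0.05. LPL is left out of the SW620 panel because it has no reads in SW620 caffeine. In SW620, 3 of 11 receptor and trafficking genes are filled to the right of 0, LRP1 farthest at 1.13, and LPCAT2 is filled to the left in both lines.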

How the data were processed

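The deposited values were raw read counts per Ensembl gene, one table per library. Per the labels, the RNA integrity number was 8 or more, libraries came from a directional poly-A kit and reads were 75 bp, single-end, from a NextSeq 500. Per the submitters' processing notes, the tools were Trim Galore, STAR 2.7.3a and featureCounts 2.0.5 on hg38; the strand setting and annotation release are not given in the sources used here. The extract text states at least 2 biological replicates per group, without saying how cultures were separated, so p-values measure the spread between these libraries, which may be technical. The 12 assignment totals per table were left out of library sizes and tests; ambiguous reads were 7.36% to 8.37% of reads. Symbols were matched for 62625 of 62649 IDs, and positions and exon overlaps come from GENCODE 29 (58225 IDs matched, GRCh38). Promoter windows come from RefSeq.

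Counts of all 8 libraries were fitted in edgeR 4.0.16 (R 4.3.3) with TMM scaling, filterByExpr and a robust quasi-likelihood F test on 4 group means, adjusted by Benjamini-Hochberg over 17671 tested genes of 35897 with any count, at a threshold of 0.05. "Called" means past that threshold. Counts at an unadjusted p under 0.05 are given without a share over all tested genes, which was not computed, so they do not show a response of a list. The contrasts were caffeine against control in each line, the difference of these effects, and the untreated lines; the last 2 share control libraries with the first 2. The procedure was tested on simulated counts of 17671 genes, for caffeine against control in SW480. Of 100 genes changed by 1 on the log2 scale 70% were recovered, and of 100 changed by 2, 91%, with 12 false calls. A gene that was not called may thus still have changed. CPM are TMM-scaled, log2 CPM used a prior count of 2, and intervals are 95%. The biological coefficient of variation was 10.5%.

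The results of 3 list genes are not reported here, and list counts leave them out. The members and lists were chosen with earlier results of these data known. Named were all 8 members, up to 4 genes per list by the smaller adjusted p of the caffeine contrasts, called genes where a list had 5 or fewer, and the 5 genes most like APOE. Alternatives were DESeq2 1.42.0 size factors and Wald test, limma-voom (limma 3.58.1), no low-count filter, the replicate number as a block, a fit per line, no mitochondrial genes, and leaving out each library.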

Additional observations from a re-analysis of the deposited data

Results flagged for a closer look

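For 7 of the named genes the caffeine effect in SW620 minus that in SW480 passed the edgeR test of the difference itself, where 6.71% of all tested genes did; values are on the log2 scale. One of them is a member, ABCA1 (-1.92 ± 0.46; edgeR adjusted p = 0.0194), lower with caffeine in SW620 and not called in SW480. The receptor and sterol carrier genes LRP1 (1.19 ± 0.26; edgeR adjusted p = 0.0112) and NPC1 (0.83 ± 0.20; 0.0197) were called higher in SW620 and not called in SW480. STARD3 (-0.71 ± 0.19; edgeR adjusted p = 0.0371) and FASN (-0.97 ± 0.22; 0.0128) were called higher in SW480 and not called in SW620. The neighbour BCL3 (1.33 ± 0.35; edgeR adjusted p = 0.0282) and the co-regulator TBL1XR1 (0.65 ± 0.17; 0.0314) were called in SW620 alone. Every one of these 7 differences lost its call when 1 of several libraries was left out. The edgeR adjusted p of the lost fits was 0.0504 to 0.0838 for ABCA1, 0.0517 to 0.0564 for LRP1, 0.0758 to 0.122 for NPC1, 0.0918 to 0.175 for STARD3, 0.0558 to 0.0646 for FASN, 0.0524 to 0.128 for BCL3 and 0.0856 to 0.180 for TBL1XR1.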

How the results depend on the processing

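With 2 libraries per group, calls turned on single libraries, and 25 of the 33 called results for named genes were lost without some 1 library. Leaving out each library gave 50 to 1367 called genes in SW480 (636 with all 8), 787 to 3225 in SW620 (2537), 421 to 2156 for the difference between the lines (1185) and 9687 to 11763 between the untreated lines (11591). The lowest SW480 count, 50, came without SW480 caffeine replicate 2. Without the low-count filter 1073 genes were called in SW480, and a separate fit of SW620 called 4617 there. APOE lay between -1.87 and -1.46 in SW480 and between -1.86 and -1.41 in SW620 over the libraries left out. Values that changed sign were from results that did not pass or were not tested: the APOE difference between the lines ran from -0.22 to 0.24, APOC1 ran from -0.80 to 0.073 in SW480, from -0.47 to 0.0047 in SW620 and from -0.29 to 0.57 for the difference, NR1H2 from -0.10 to 0.15 in SW620, MYLIP from -0.30 to 0.050 for the difference, and LPCAT3 from -0.11 to 0.12 in SW480. LPCAT3 in SW480 was also at -0.019 with DESeq2 size factors, -0.021 with the DESeq2 Wald test and -0.0087 with limma-voom. The cause was not tested.

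With the replicate number as a block, 590 genes were called in SW480, 2249 in SW620, 1087 for the difference and 11397 between the untreated lines. Deviations of same-numbered libraries from their group means had a correlation of 0.0265 in SW480, 0.0134 in SW620 and -0.0966 across the lines. The labels do not say what the replicate number marks, so whether these libraries shared a batch stays unknown. Under the block TBL1XR1 in SW620 lost its call (edgeR adjusted p = 0.0679), and no call of a member changed. ABCA1 (16 to 63 reads per library) and ABCG1 (44 to 118) had the fewest reads of the members.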
